A study of Mus musculus with 10 samples.

Results

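The miR-30 family was measured in mouse retina as 9 mature miRNAs, chosen by name with earlier results of these data known. They were the 5p arms mmu-miR-30a-5p, mmu-miR-30b-5p, mmu-miR-30c-5p, mmu-miR-30d-5p and mmu-miR-30e-5p and the 3p arms mmu-miR-30a-3p, mmu-miR-30c-2-3p, mmu-miR-30d-3p and mmu-miR-30e-3p, written below without the species prefix. All 9 were found among the 1061 mature miRNAs of the deposited table. Small RNA came from both retinas of 5 wild-type C57BL/6J mice, at postnatal day 34. Each mouse had been anaesthetised at postnatal day 24 with ketamine and xylazine and had then worn a goggle with a -20 D lens over 1 eye for 10 days, while the other eye had none. Such a lens moves the focus behind the retina, a common way to make an eye myopic. Mice 61, 64, 65, 66 and 68 gave a left and a right library each, every library coming from 1 retina. Which eye wore the lens is not stated in the labels. The comparison is therefore between the right and left eyes of a mouse, not between lens and control.

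A miRNA hairpin is cut into a 5p and a 3p arm. One of them is usually kept in Argonaute, where bases 2 to 8, the seed, pair with target mRNAs, and the other is mostly degraded. In the miR-30 family the 5p arm is the known guide. The family is expressed in many tissues, and its guides are known to repress Beclin 1, an autophagy protein, and the Notch ligand Dll4 of endothelial cells. The mouse genes lie in pairs on 3 chromosomes, and miR-30c is made from 2 hairpins with the same 5p arm.

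The mature sequences were taken from RefSeq (GRCm38.p6), where 6 of the 9 members were matched, and are shown here 5′ to 3′ because the family is defined by its seed, which is in capitals. miR-30a-5p, miR-30c-5p and miR-30e-5p had the seed GUAAACA. Of the table's miRNAs with a RefSeq sequence (909 of 1061), miR-384-5p had the same seed, and no other did.
miR-30a-5p: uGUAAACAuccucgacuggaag
miR-30e-5p: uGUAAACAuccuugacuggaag
miR-30c-5p: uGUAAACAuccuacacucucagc
miR-384-5p: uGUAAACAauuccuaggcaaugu
Counted from 1 at the 5′ end, miR-30e-5p differed from miR-30a-5p by C13U alone. miR-30c-5p shared its first 12 bases with miR-30a-5p and differed at 5 of the 22 positions compared. miR-384-5p shared its first 8 bases with miR-30a-5p and differed at 10 of 22.

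The 3p arms are shown because they do not carry the seed of the guides and split into seeds of their own.
miR-30a-3p: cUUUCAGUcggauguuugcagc
miR-30e-3p: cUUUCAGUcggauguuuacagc
miR-30c-2-3p: cUGGGAGAaggcuguuuacucu
miR-30c-1-3p: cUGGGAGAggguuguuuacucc
miR-30e-3p differed from miR-30a-3p by G18A alone, and both had the seed UUUCAGU, which no other matched miRNA of the table had. miR-30c-2-3p and miR-30c-1-3p, the 3p arms of the 2 miR-30c hairpins, shared the seed UGGGAGA and differed at 3 of 22 positions. miR-30b-5p, miR-30d-5p and miR-30d-3p are given by name.

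In the GRCm38 coordinates of the deposited table, miR-30a-5p lay on the plus strand of chromosome 1 from 23272274 to 23272295 and miR-30a-3p from 23272315 to 23272336, outside other annotated genes. The listed copy of miR-30c-5p (23291714 to 23291736) and miR-30c-2-3p (23291754 to 23291775) lay 19440 bases further on the same strand, in an exon of the lincRNA Gm27028. On the minus strand of chromosome 15, miR-30b-5p (68337469 to 68337490) lay outside other annotated genes. miR-30d-5p (68341257 to 68341278) and miR-30d-3p (68341217 to 68341238) lay in an exon of the lincRNA Gm20732, with 3788 bases between the starts of the 5p arms. miR-30e-5p (120772660 to 120772681) and miR-30e-3p (120772618 to 120772639) lay on the minus strand of chromosome 4 in an intron of Nfyc, which encodes a subunit of the transcription factor NF-Y. miR-30c-1-3p, from 120769546 to 120769567, lay in an intron of Nfyc as well. Reads of miR-30c-5p from chromosome 1 and chromosome 4 have the same sequence and cannot be told apart.

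The library totals of normalised reads were nearly equal, from 17312269 to 17312436, because of the authors' normalisation, and the sequencing depth is unknown. Values follow the ranks of the miRNAs within a library, and adapter ligation favours some sequences, so levels of different miRNAs are not on a molar scale. The marker miRNAs of retina were high, with miR-182-5p of photoreceptors at 9840430 and miR-181a-5p of the inner retina at 3689310 normalised reads in all 10 libraries. The 3 photoreceptor markers summed to between 10550828 and 10579078 normalised reads, the 3 of inner retina and neurons to between 3811768 and 3841834 and the 2 of pigment epithelium to between 209809 and 224483. miR-183-5p and miR-204-5p also had the same value in all 10 libraries, so these sums could hardly vary. The other markers in them ranged from 20982.5 to 49232.7 for miR-96-5p and from 76000 to 88655 for miR-124-3p. miR-9-5p ranged from 41158 to 63868 and miR-211-5p from 6309 to 20982.5. The 2 endothelial markers summed to between 7427 and 9110 normalised reads, the 2 of pericytes and smooth muscle to between 14496 and 21089 and the 3 of blood to between 2555 and 4420. The lens and cornea pair, miR-184-3p and miR-205-5p, summed to 22409 in the right retina of mouse 65 and to between 999 and 2138 in the other 9 libraries. In that retina miR-184-3p was at 22384 normalised reads, and miR-205-5p, at 25.6, lay within its range elsewhere. The 3 skeletal muscle markers summed to 1629 in the left retina of mouse 68 and to at most 369 elsewhere, with miR-1a-3p and miR-206-3p listed at 0 in at least 1 library. In whole retina, fewer cells of a type and less RNA per cell cannot be told apart.

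The guides were abundant and unequal. Together the 5 guides took 1.32% ± 0.0955 (SD, n = 10 libraries) of the normalised reads, with a range from 1.17% to 1.45%, and the 4 3p arms took 0.0357% ± 0.00161 (SD, n = 10). The guides' share was 1.35% ± 0.0758 on the left side and 1.30% ± 0.115 on the right side (SD, n = 5 each), and it was higher on the right in 2 of 5 mice. The share of the 3p arms was 0.0353% ± 0.000780 on the left side and 0.0361% ± 0.00219 on the right side (SD, n = 5 each), higher on the right in 4 of 5 mice. The shares were not tested, since they sum over chosen members.

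**Figure D1:**
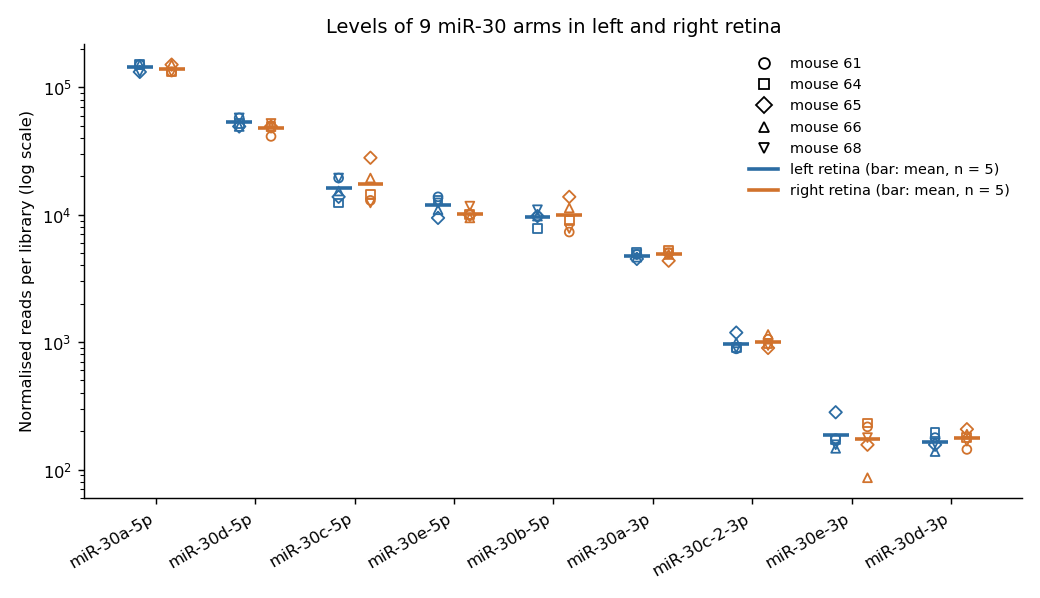
Normalised reads (log axis) of the 9 miR-30 arms in 5 left and 5 right retinas, ordered by mean, with a symbol for each mouse and a bar for the mean of each side. The guides span from a mean of 141170 for miR-30a-5p to 9724 for miR-30b-5p, the 3p arms lie below them, and the sides overlap for every arm.

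miR-30a-5p made up 61.6% ± 2.38 of the guides' sum (SD, n = 10 libraries). It held only 2 values, because it stood at rank 8 or 9 of each library. It was at 150447 normalised reads in the left retinas of mice 61, 64 and 66 and at 131892 in those of mice 65 and 68. On the right it was at 150447 in mice 65 and 66 and at 131892 in mice 61, 64 and 68. Both values occurred on both sides, and the eyes of mice 66 and 68 were equal.

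miR-30d-5p, the next guide, made up 22.1% ± 1.73 of the sum (SD, n = 10 libraries) and stood between ranks 17 and 20. Left retinas of mice 61, 64, 65, 66 and 68 had 57479, 51974, 49233, 49233 and 57479 normalised reads. The right retinas of the same mice had 41158, 49233, 49233, 49233 and 51974. The right retina was lower in 3 mice, equal in 2 and higher in none, and the ranges of the sides overlapped.

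The other 3 guides lay near each other in level. miR-30c-5p had 19388, 12365, 13805, 15330 and 19388 normalised reads in the left retinas of mice 61, 64, 65, 66 and 68. On the right it had 12948, 14434, 27971, 19388 and 12365 in that order. The right retina of mouse 65 held the highest value of the 10, and the next highest occurred on both sides.

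miR-30e-5p had 13805, 12948, 9435, 10930 and 12365 normalised reads in the left retinas of mice 61, 64, 65, 66 and 68. In the right retinas it had 9982 in mice 61, 64 and 65, 9435 in mouse 66 and 11670 in mouse 68. In 4 of 5 mice the right value was the lower, with overlapping sides.

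miR-30b-5p had 9745, 7796, 9745, 9745 and 10930 normalised reads in the left retinas of mice 61, 64, 65, 66 and 68. On the right it had 7309, 9068, 13805, 11298 and 7796. As for miR-30c-5p, the right retina of mouse 65 was the highest of the 10 libraries.

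The 3p arms were lower and differed more between hairpins. miR-30a-3p had the smallest SD of log2 values among the members, with a range from 4352 to 5242 normalised reads over the 10 libraries and a mean of 4839 ± 269 (SD, n = 10). Its eyes differed by -0.05 to 0.07 on the log2 scale in the 5 mice. miR-30c-2-3p, which is known in mouse fibroblasts to repress the stress-response transcription factor Xbp1, ranged from 886 to 1188 normalised reads with a mean of 988. miR-30d-3p ranged from 138 to 207 normalised reads with a mean of 171. miR-30e-3p varied most for its mean, from 86.2 in the right retina of mouse 66 to 282 in the left retina of mouse 65, with a mean of 180. The log2 values of miR-30e-3p had an SD of 0.45 over 10 libraries and those of miR-30c-5p of 0.38, against 0.08 for miR-30a-3p and a median of 0.28 over the 484 tested miRNAs.

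The order of the levels was clear at most steps. miR-30a-5p was above miR-30d-5p, and miR-30d-5p above miR-30c-5p, in 10 of 10 libraries with ranges that did not overlap. The same held for miR-30b-5p over miR-30a-3p, for miR-30a-3p over miR-30c-2-3p and for miR-30c-2-3p over miR-30e-3p. miR-30c-5p was above miR-30e-5p in 9 of 10 libraries and miR-30e-5p above miR-30b-5p in 7 of 10, with overlapping ranges. miR-30e-3p was above miR-30d-3p in 5 of 10 libraries, so that this pair had no order.

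The relatives of the members outside the set were lower than the guides. miR-384-5p, which carries the guides' seed from a hairpin on the X chromosome (105344332 to 105344354), had a mean of 929 ± 75.9 normalised reads (SD, n = 10). miR-30c-1-3p had a mean of 514 ± 50.6 and miR-30b-3p of 131 ± 19.4 (SD, n = 10). miR-30f, annotated on the strand opposite to miR-30e, was listed between 0 and 2.40 normalised reads and was not tested.

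Right and left eyes were compared to see whether members differed within mice that had worn 1 lens. No member passed the test, and 4 of 9 were lower and 5 higher on the right. The median log2 fold change of the 9 members was 0.01, against -0.01 over all 484 miRNAs tested, and the median size was 0.07 against 0.09. By limma with mouse as a block, 0 of 9 members were past an adjusted p of 0.05, as were 0 of 484 miRNAs (0%). At an unadjusted p under 0.05 there was 1 of 9 members, against 12 of 484 miRNAs (2.48%). That member was lower on the right, as were 6 of the 12 (1.24% of those tested). The same direction in all 5 mice was found for 0 of 9 members, against 3.72% of the tested miRNAs. The sides overlapped for 9 of 9 members, and they did not overlap for 0.826% of the tested miRNAs.

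**Figure D2:**
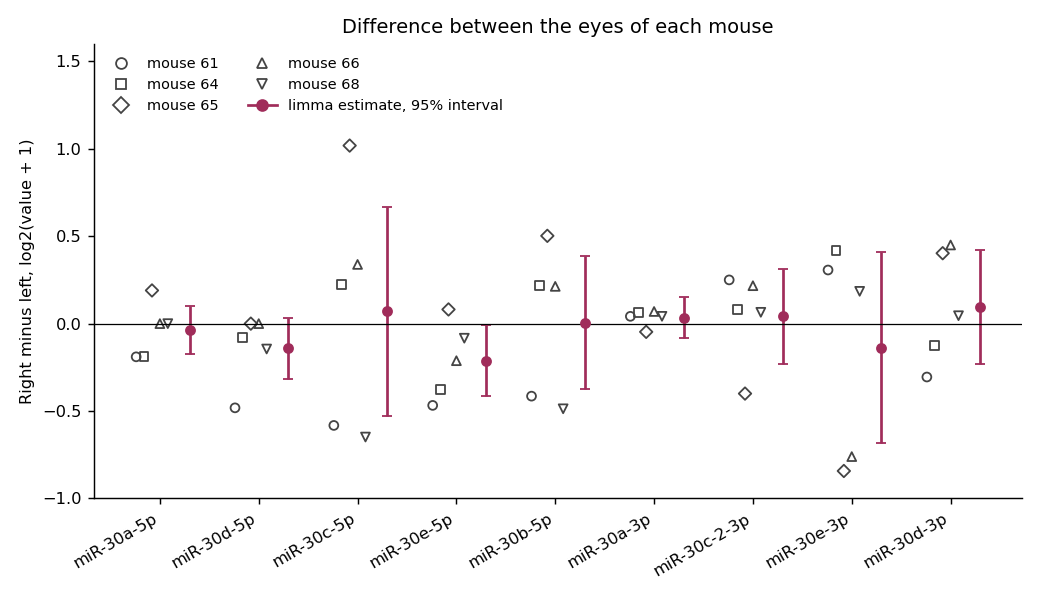
Right minus left difference of log2(value + 1) for each mouse (open symbols) and the limma estimate with its 95% interval (filled) for the 9 arms. The interval of miR-30e-5p ends just below 0, those of the other 8 arms cross 0, and mouse 65 gives the highest value for miR-30c-5p, 1.02.

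Among the guides, the member at the unadjusted p under 0.05 was miR-30e-5p. Left retinas had 11896 ± 1729 normalised reads and right retinas 10210 ± 850 (SD, n = 5), a log2 fold change of -0.21 (SE 0.09). Its p by limma was 0.0451 and its adjusted p 0.958. The p by limma ranged from 0.00789 to 0.137 over the alternative settings, and the adjusted p from 0.285 to 1. The lowest of each was without mouse 65, where the log2 fold change was -0.28, and the change was -0.15 without mouse 61. Without mouse 65, 63 of 483 tested miRNAs were at an unadjusted p under 0.05, against 12 of 484 with all mice.

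miR-30d-5p averaged 53079 ± 4169 normalised reads in the left retinas and 48166 ± 4093 in the right ones (SD, n = 5), a log2 fold change of -0.14 (SE 0.07) with an adjusted p of 0.958 by limma. Without mouse 61 it was -0.06. miR-30a-5p had a log2 fold change of -0.04 with a 95% interval from -0.18 to 0.10, a fold between 0.886 and 1.07. This guide held only the values of ranks 8 and 9. Its interval follows the gap between these ranks and cannot bound a change in abundance. Without mouse 65 the log2 fold change of miR-30a-5p was -0.09, and without mouse 61 or mouse 64 it was 0. miR-384-5p, the relative with the same seed, averaged 961 ± 48.0 normalised reads in the left retinas and 898 ± 90.6 in the right ones (SD, n = 5), a log2 fold change of -0.10 with an adjusted p of 0.958 by limma.

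miR-30b-5p and miR-30c-5p had the widest intervals of the guides. miR-30b-5p had a log2 fold change of 0.01 with a 95% interval from -0.37 to 0.39. miR-30c-5p averaged 16055 ± 3218 normalised reads in the left retinas and 17421 ± 6513 in the right ones (SD, n = 5), a log2 fold change of 0.07 with a 95% interval from -0.53 to 0.67. In fold, this interval ran from 0.694 to 1.59. Without mouse 65 the log2 fold changes were -0.12 for miR-30b-5p and -0.17 for miR-30c-5p. The right library of that mouse also held the highest lens and cornea sum, inner retina sum (3841834) and pericyte sum (21089). It held the lowest blood sum (2555). Of these markers, only miR-184-3p, miR-9-5p and miR-143-3p lay outside their range in the other 9 libraries. miR-486a-5p (2508) and miR-124-3p (88655) equalled an end of that range. miR-205-5p, miR-145a-5p (106), miR-451a (39.5) and miR-144-3p (8.24) lay inside it, and miR-181a-5p was the same throughout. The part of these markers in the values of miR-30b-5p and miR-30c-5p was not tested.

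Among the 3p arms, the log2 fold changes were 0.03 for miR-30a-3p, 0.04 for miR-30c-2-3p, 0.09 for miR-30d-3p and -0.14 for miR-30e-3p, with adjusted p values by limma from 0.972 to 0.978. miR-30a-3p had the narrowest interval of the family, from -0.08 to 0.15, and miR-30e-3p a wide one, from -0.69 to 0.41. For miR-30e-3p the difference ran from -0.84 in mouse 65 to 0.42 in mouse 64. Without mouse 65 it was 0.04, and without mouse 64 it was -0.28. miR-30c-2-3p was at 0.15 without mouse 65. miR-30d-3p was at 0.0049 without mouse 66 and at 0.19 without mouse 61.

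The ratio of the arms of a hairpin differed by a wide margin within the family. The ratios compare normalised values, which follow ranks, and not counted reads. In the geometric mean over 10 libraries, the 5p value was 29.2 times the 3p value for miR-30a. It was 63.5 times for miR-30e and 296 times for miR-30d. The miR-30d ratio lay between 237 and 356 in the 10 libraries and that of miR-30a between 25.2 and 34.6, so that these did not overlap with each other. For miR-30c, whose 5p reads come from both hairpins, the ratio to miR-30c-2-3p alone was 16.5, and to the sum of both 3p arms it was 10.8. The ratio of miR-30b-5p to miR-30b-3p was 73.7.

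**Figure D3:**
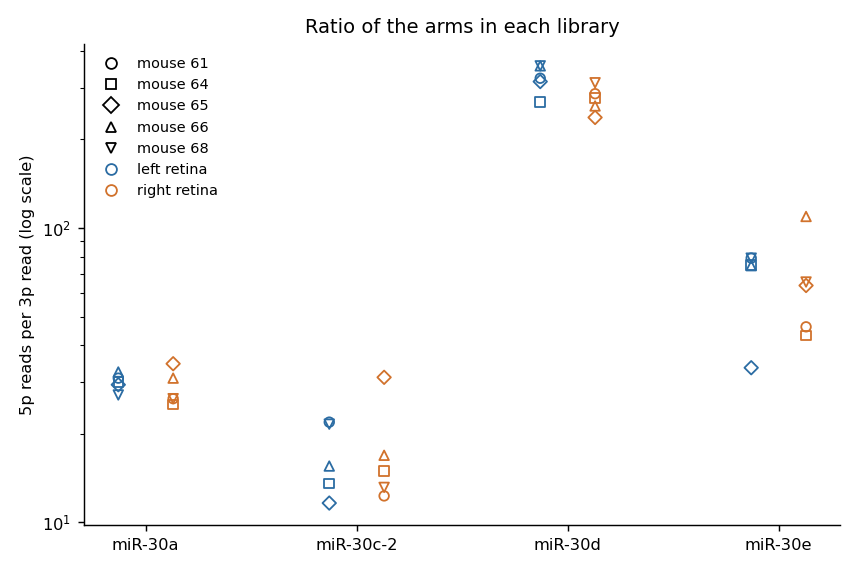
Normalised value of the 5p arm divided by that of the 3p arm (log axis) in each of 10 libraries for 4 hairpins. Colour gives the side and symbol the mouse. miR-30d lies between 237 and 356, miR-30a between 25.2 and 34.6, and miR-30e spreads from 33.5 to 109.

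Single bases separated miRNAs that stood far apart in level. miR-30a-5p and miR-30e-5p, which differ by C13U, stood 12.8-fold apart in mean level, with a range from 10.7 to 15.9 in single libraries. miR-30a-3p and miR-30e-3p, which differ by G18A, stood 26.9-fold apart, with a range from 16.0 to 56.5. Whether the counting allowed mismatches is not given in the sources used here. A small part of the reads of the higher arm, if assigned to the lower, would change the lower value, and this was not tested.

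No arm ratio passed a test between the sides. For miR-30d the right ratio was the lower in 4 of 5 mice, with a log2 difference of -0.23 ± 0.20 (SD, n = 5; exact sign-flip test, two-sided, p = 0.125). For miR-30a it was also the lower in 4 of 5 mice, with a log2 difference of -0.07 ± 0.20 (SD, n = 5; exact sign-flip test, p = 0.375). It was -0.03 without mouse 64 or mouse 61 and -0.15 without mouse 65. The differences were 0.03 ± 0.90 for miR-30c-2 and -0.07 ± 0.78 for miR-30e (SD, n = 5; exact sign-flip tests, p = 0.938 and 0.812). For miR-30e the log2 difference ran from -0.80 in mouse 64 to 0.92 in mouse 65. With 5 mice the smallest p of the exact test is 0.0625, so that no ratio could pass 0.05. Adjusted over the 7 ratios of this kind, the p values of the exact tests were from 0.766 to 0.938.

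The remaining 3 ratios compared members of 1 locus. The normalised value of miR-30b-5p was 0.190 of that of miR-30d-5p, its neighbour on chromosome 15, with a range from 0.150 to 0.280. This ratio was higher on the right in 4 of 5 mice, by 0.15 ± 0.32 on the log2 scale (SD, n = 5; exact sign-flip test, p = 0.375). It was 0.06 without mouse 65 and 0.27 without mouse 68. The ratio of miR-30c-5p to miR-30e-5p, neighbours on chromosome 4 for 1 of the miR-30c hairpins, was 1.48, with a range from 0.955 to 2.80. Its log2 difference was 0.28 ± 0.61 (SD, n = 5; exact sign-flip test, p = 0.438), and it was 0.12 without mouse 65 and 0.49 without mouse 68. The ratio of miR-30a-3p to miR-30c-2-3p on chromosome 1 was 4.91, with a log2 difference of -0.01 ± 0.22 (SD, n = 5; exact sign-flip test, p = 0.812).

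Within the family, miR-30b-5p and miR-30c-5p varied together across libraries. miR-30b-5p is known as the closest relative of miR-30c-5p in sequence, although their genes lie on different chromosomes. Over the 10 libraries, their centred log2 values had a Pearson r of 0.93 and a Spearman rho of 0.90. The r was 0.87 without the right retina of mouse 65 and 0.88 without the 2 libraries farthest from the median of miR-30b-5p. The right minus left differences of both had the same sign in 5 of 5 mice. These values describe 10 libraries from 5 animals that share a normalisation, and they were not tested. The part of sequence likeness, or of the assignment of reads between the 2 miRNAs, was not tested either.

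miR-30b-5p and its chromosome 15 neighbour miR-30d-5p had an r of 0.30 over the 10 libraries, and miR-30c-5p and miR-30e-5p had -0.06. Without the right retina of mouse 65 these were 0.485 and 0.163. miR-30a-5p and miR-30e-5p, which differ by C13U alone, had an r of 0.233, and 0.342 without that retina. The next closest pair of guides after miR-30b-5p and miR-30c-5p was miR-30d-5p with miR-30e-5p, at 0.715. Over the 9 guide pairs other than miR-30b-5p with miR-30c-5p, r ran from -0.24 to 0.715, and over all 36 pairs of members from -0.75, for miR-30e-5p with miR-30c-2-3p, to 0.93. Between the arms of 1 hairpin, r was -0.34 for the arms of miR-30a, 0.32 for those of miR-30d and -0.04 for those of miR-30e, and -0.27 for miR-30c-5p with miR-30c-2-3p. With 3p arms outside the set, r was -0.723 for miR-30c-5p with miR-30c-1-3p and -0.36 for miR-30b-5p with miR-30b-3p. Without the right retina of mouse 65 these 2 were -0.282 and -0.003.

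**Figure D4:**
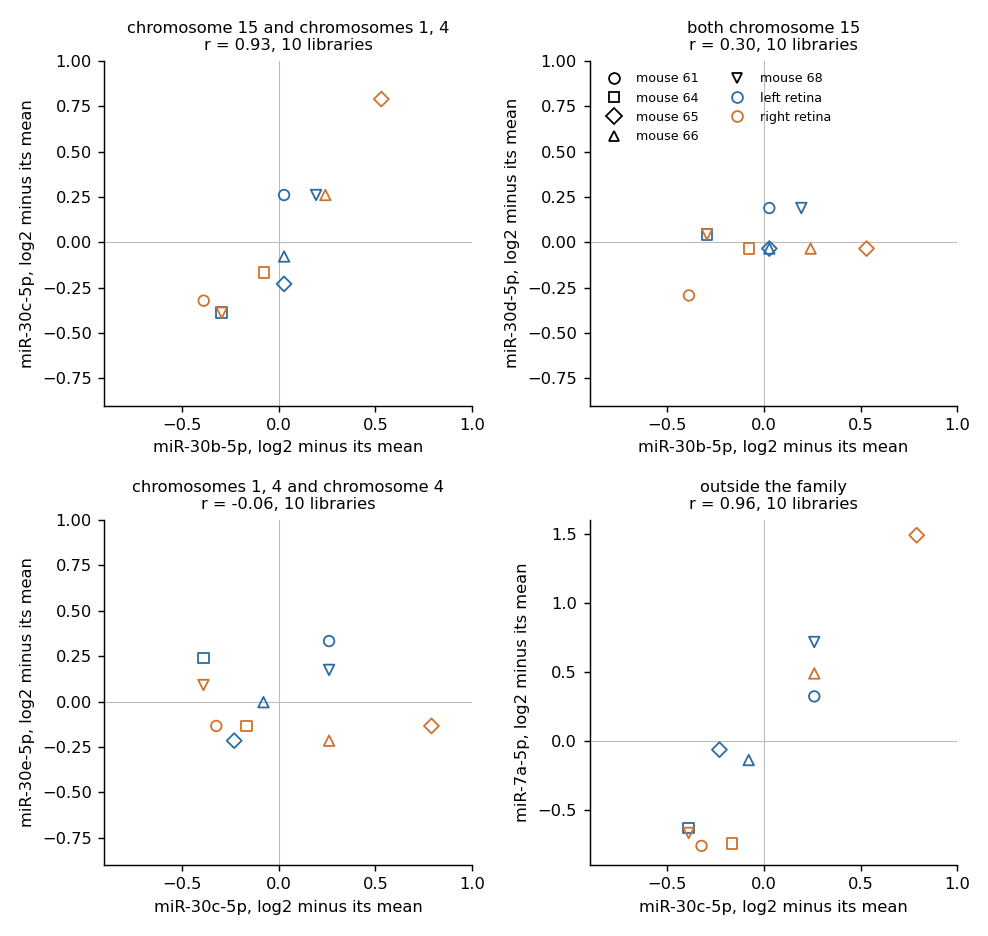
Log2 values of pairs of miRNAs, each minus its own mean over 10 libraries, with a colour for the side and a symbol for the mouse. miR-30b-5p and miR-30c-5p lie along a line (r = 0.93), as do miR-30c-5p and miR-7a-5p (r = 0.96), whereas miR-30b-5p with miR-30d-5p (0.30) and miR-30c-5p with miR-30e-5p (-0.06) scatter.

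Outside the family, the miR-7 miRNAs had the profile most like the mean of the 5 guides. The guides that vary most, miR-30c-5p and miR-30b-5p, weigh most in that mean. miR-7a-5p and miR-7b-5p are known from neurons and endocrine cells and bind the circular RNA Cdr1as. Their sequences are shown to make plain that they do not carry the miR-30 seed.
miR-7a-5p: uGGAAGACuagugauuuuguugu
miR-7b-5p: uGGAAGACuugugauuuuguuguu
Among 468 miRNAs compared, the Pearson r with the mean centred log2 value of the 5 guides over 10 libraries was highest for miR-7b-5p, at 0.91, and miR-7a-5p, at 0.90. They were followed by let-7f-2-3p (0.89), miR-3968 (0.86) and miR-434-3p (0.85). It was lowest for miR-125a-3p (-0.90), miR-181d-5p (-0.84) and miR-6988-3p (-0.825). Without the right retina of mouse 65, the r of miR-7a-5p with the mean of the guides was 0.86. The highest and lowest of so many correlations over 10 libraries are a description and were not tested.

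miR-7a-5p had an r of 0.97 with the mean of miR-30b-5p and miR-30c-5p, and miR-7b-5p had 0.757. miR-7b-5p was low, with a mean of 13.2 normalised reads and a lowest value of 4.10. Its r with miR-30b-5p was 0.734, and 0.285 without the 2 libraries farthest from the median of miR-30b-5p, against 0.941 and 0.881 for miR-7a-5p. miR-7a-5p was at 42.2, 21.3, 32.1, 30.4 and 55.8 normalised reads in the left retinas of mice 61, 64, 65, 66 and 68. On the right it was at 19.4, 19.7, 96.2, 47.5 and 20.8. The high libraries of miR-7a-5p, the right retinas of mice 65 and 66 and the left retinas of mice 61 and 68, were also those in which miR-30c-5p was highest. With miR-30e-5p the r of miR-7a-5p was -0.05, with miR-30d-5p 0.355 and with miR-30a-5p 0.428. Without the right retina of mouse 65 these were 0.163, 0.583 and 0.289. For miR-7b-5p the r over 10 libraries with the same guides was 0.362, 0.68 and 0.557.

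**Figure D5:**
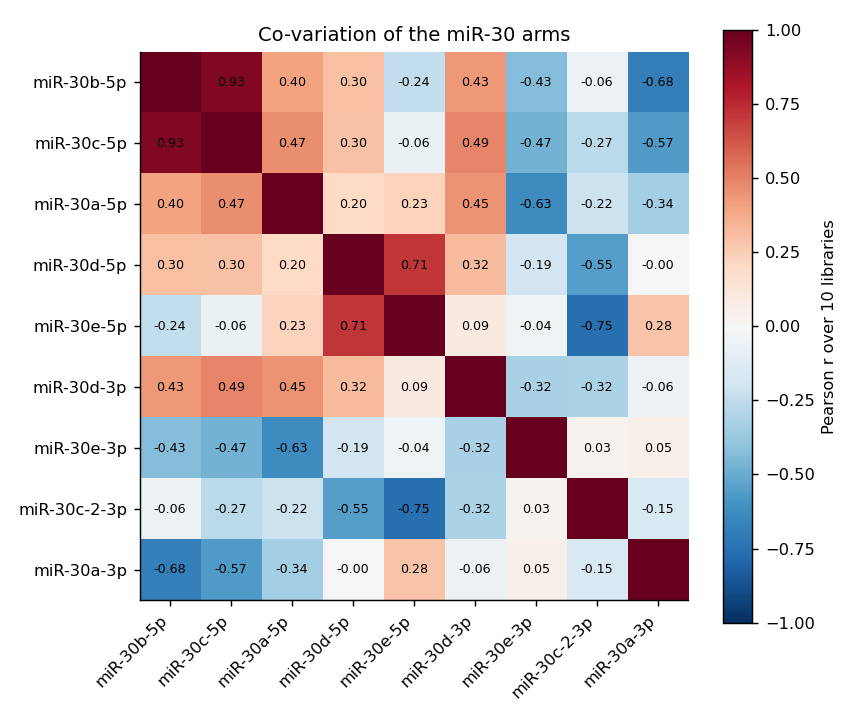
Pearson r of centred log2 values over 10 libraries for each pair of the 9 miR-30 arms, with red for positive and blue for negative values. The pair miR-30b-5p and miR-30c-5p (0.93) and the pair miR-30d-5p and miR-30e-5p (0.715) are the closest of the guide pairs, and the most opposed pair is miR-30e-5p with miR-30c-2-3p (-0.75).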

How the data were processed

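Small RNA was purified with a QIAGEN kit and 50 ng went into TruSeq Small RNA libraries, per the labels' protocols. The submitters' processing notes list Bowtie and Partek with no version, and mm10 and GRCm38 as builds. Adapter trimming, the miRNA annotation and the assignment of reads between similar miRNAs are not given in the sources. Deposited values are a signal, normalised read counts of 1061 miRNAs in 10 libraries, with the same value in every library at 342 ranks. Depth is therefore unknown and no counting interval is given. The table held 0 columns of other samples.

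From these values, 484 miRNAs with a mean of at least 10 were taken as log2(value + 1) and fitted with limma 3.58.1 (R 4.3.3), with mouse as a block, a mean-variance trend, two-sided tests and Benjamini-Hochberg adjustment. The fit was tested on simulated data. Both retinas of a number came from 1 animal, and their deviations correlated across miRNAs by 0.089 to 0.382, against a median of -0.083 for different mice. Each side was centred on its own mean over the mice, so positive values for the same mouse lower those for different mice. The median is therefore no independent reference. Log2 ratios of members were tested by exact sign flips over mice in Python 3.11.15. Alternatives were no block, other pseudocounts and filters, median-ratio scaling, no trend and leaving out each mouse. All 9 members passed the filter. The members and marker lists, and the rule for other miRNAs (those sharing a seed, the other miR-30 arms, the 5 most and 3 least like in profile), were chosen with earlier results of these data known. miR-384-3p was computed but is not described. Table ends were given 1 base earlier, as in RefSeq for 10 of 10 entries. Host genes came from GENCODE for GRCm38.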

Additional observations from a re-analysis of the deposited data

Results flagged for a closer look

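In 36 groups of 5 values (levels, ratios and shares on each side), 5 held a value that stood apart from the other 4 by Dixon's criterion. The rate of about 1 in 20 by chance holds for independent, normally distributed values. Here many values are tied and the ratios and shares reuse the levels, so the 5 cannot be read against that rate. miR-30d-5p was low in the right retina of mouse 61, at 41158 normalised reads against 49233 to 51974 in the other right retinas. It stood at rank 20 there and at rank 18 or 19 in the others. Since values follow ranks, the gap is that between neighbouring ranks and not a measured drop. miR-30e-5p was high in the right retina of mouse 68, at 11670 against at most 9982 in the others. miR-30e-3p was high in the left retina of mouse 65, at 282 against at most 175. In the same library the log2 ratio of the miR-30e arms was low, at 5.06 against 6.21 to 6.30. The log2 ratio of miR-30c-5p to miR-30e-5p was low in the left retina of mouse 64, at -0.0665 against 0.49 to 0.65.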

How the results depend on the processing

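In each of 12 alternative settings 0 of 9 members passed, as did 0 of all tested miRNAs. At an unadjusted p under 0.05 there was 0 or 1 member. Over all tested miRNAs this count ran from 5 of 260, at a mean of at least 100, to 63 of 483 without mouse 65. Without the replicate block 0 members passed as well, and the block changed no call at the adjusted p. The unadjusted p of miR-30e-5p by limma was 0.0641 without the block, against 0.0451 with it. Of the 108 values of single members under these settings, 98 kept their direction, 2 were at 0 (miR-30a-5p without mouse 61 or 64) and 8 turned, all when a mouse was left out. The log2 fold change then ranged from -0.12 to 0.13 for miR-30b-5p, from -0.17 to 0.25 for miR-30c-5p, from -0.0096 to 0.15 for miR-30c-2-3p and from -0.28 to 0.0378 for miR-30e-3p. The log2 differences of ratios ranged from -0.32 to 0.24 for the arms of miR-30c-2, from -0.32 to 0.11 for those of miR-30e and from -0.10 to 0.0416 for miR-30a-3p to miR-30c-2-3p. The cause was not tested. With the 5 highest miRNAs left out of the total, the guides took 9.90% and the 3p arms 0.267%, as a smaller total gives. The depth is unknown, so the counting error of the lower arms cannot be given.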
